A study of Mus musculus with 18 samples.

Results

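The 9 genes for the sarcomeric myosin heavy chains (Myh1, Myh2, Myh3, Myh4, Myh6, Myh7, Myh7b, Myh8 and Myh13) were followed in the hindlimb muscle of female C57BL/6J mice of 3 ages (2, 20 and 28 months). They were taken by gene symbol, and all 9 were among the 23420 genes of the RNA table and among the 13178 genes with a mean of at least 10 normalized counts that were tested. RNA-seq had been made from 3 mice per age, 1 library per mouse, and methylated DNA had been captured with a methyl-CpG-binding domain (MBD) from the pooled DNA of the same 3 mice, in muscle and in spleen T cells. No agent or allele distinguished the groups, which differed in age alone by their labels. The muscle was ground whole, and which hindlimb muscles entered each powder is not given in the sources used here.

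A myosin heavy chain carries the motor head that pulls on actin and the long tail that builds the thick filament of the sarcomere, and each muscle fibre is typed by the chain it makes. In adult limb muscle of mice, Myh4 encodes the fastest chain (type IIb), Myh1 the type IIx chain, Myh2 the type IIa chain and Myh7 the slow (type I) chain, which is also the beta chain of the heart. Myh3 (embryonic) and Myh8 (neonatal) are made in developing and regenerating fibres, Myh6 encodes the alpha chain of the heart, Myh13 the chain of extraocular muscle, and Myh7b is an ancient relative of the slow and cardiac chains.

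Across the 3 ages some of the less abundant members of the family rose, while Myh4, the most abundant, was not called. Embryonic Myh3 rose 3.71-fold from 2 to 20 months and was 5.70-fold higher at 28 than at 2 months. Slow Myh7 rose 8.36-fold and 9.79-fold, and IIa Myh2 rose 1.74-fold and 1.62-fold, over the same intervals. Cardiac Myh6 passed the test between 28 and 2 months alone, with a 1.90-fold rise. Fold changes are on the scale of log2(normalized count + 1), where the pseudocount of 1 is negligible for genes at these levels.

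The calls come from limma with Benjamini-Hochberg adjustment over all 13178 genes, and a gene was called at an adjusted p under 0.05. By that rule 3 of the 9 members were called between 20 and 2 months, where 16.6% of all genes were called, and 4 of the 9 between 28 and 2 months, where 13.8% were. All 7 of these calls were rises, and rises alone made up 9.42% and 7.53% of all genes. Falls made up 7.13% and 6.24%. Between 28 and 20 months no member was called by limma, against 0.379% of all genes (0.212% higher and 0.167% lower). At an unadjusted p under 0.05, Myh3 was the 1 member past the threshold in that last contrast, where 10.6% of all genes were. At that threshold 5 members, the 4 named and Myh7b, passed in each contrast with 2 months, where 31.5% and 28.2% of all genes did. DESeq2 on the reads recovered from the table called Myh3 from 20 to 28 months, and edgeR called no member there. A fold over 2 with an unadjusted p under 0.05 was met by Myh3, Myh7 and Myh7b in both contrasts with 2 months, beside 5.17% and 5.14% of all genes, and by none from 20 to 28 months, beside 1.31%. No member lay wholly below the younger group in any contrast, while 17.6%, 15.0% and 8.84% of all genes did.

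**Figure D1:**
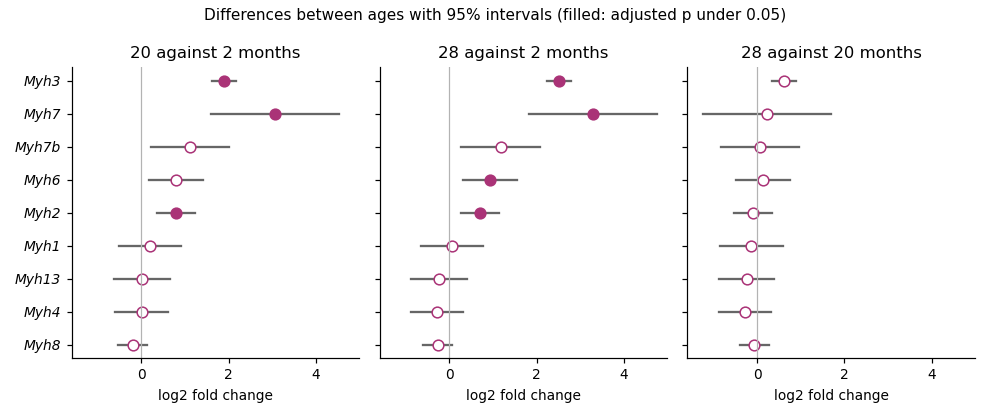
Log2 fold changes of the 9 genes in the 3 contrasts between ages (x axis, older minus younger; points, limma estimates; lines, 95% intervals; filled points, adjusted p under 0.05). Myh3 and Myh7 lie far to the right of 0 in both contrasts with 2 months, while the intervals of Myh1, Myh4, Myh8 and Myh13 include 0 in all 3.

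The libraries held 20203833 to 71115244 reads on genes. The 3 libraries numbered 3 stood apart: the ribosomal RNA gene Rn45s took 8.81 to 10.4% of their gene reads, against 24.0 to 30.4% in the other 6, and the myosin family took 6.55 to 7.45% against 4.75 to 5.92%. Without them, leaving 2 libraries per age, Myh3 alone was called in either contrast with 2 months, and Myh7 had adjusted p = 0.0828 and 0.0934 by limma with log2 fold changes of 2.90 and 3.07. Replicate 2 at 2 months was high in slow-fibre genes among the young libraries. Replicate 1 at 2 months held bone and cartilage transcripts: the summed level of Acan, Col2a1, Bglap and Ibsp was 1727 normalized counts there and 75.8 and 104 in the other 2-m libraries, and it ranged from 3.37 to 28.0 at 20 and 28 months. Of the skeletal muscle markers, Acta1, Ckm, Des and Tnnt3 were high in every library, with Acta1, the actin of skeletal fibres, between 1006618 and 1406635 normalized counts. Myod1, also on that list, lay between 540 and 1163.

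Of the 9 genes, 6 form a cluster on chromosome 11 in the order Myh3, Myh2, Myh1, Myh4, Myh8 and Myh13, all on the plus strand between positions 67078273 and 67371587 (GRCm38). Myh6 and Myh7 lie next to each other on the minus strand of chromosome 14, at 54941921 to 54968017 and 54970684 to 54994626, and Myh7b lies alone on chromosome 2, at 155611243 to 155634307. Their transcripts have 39 to 42 exons and lengths of 5902 to 6313 bases. The mRNAs of Myh6 and Myh7 were 90.2% identical, those of Myh1 and Myh2 90.1% and those of Myh1 and Myh4 89.4%, while Myh7b reached 68.4 to 71.9% with any other member.

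This likeness bears on the counts, since reads that align to several places were not assigned to genes and made up 20.5 to 22.3% of each library. The share of 75-base windows of a transcript that occur in the annotated transcripts of no other mouse gene was 77.8% for Myh1, 80.6% for Myh7 and 81.7% for Myh2. It was 90.4% for Myh4, 98.1% for Myh3 and 100% for Myh7b. The read length is not given in the sources used here, so how many reads were lost to this is not known.

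The sequences just before the transcript starts are shown for 5 members, the 4 chains of adult limb fibres and Myh3, to show where each start holds or lacks the motifs marked. They run from 250 bases before to 50 bases after the start and come from RefSeq on GRCm38, where all 9 members matched (Myh7 has 2 annotated starts, and the one of the transcript used here is printed). Capitals mark matches to TATAAA (the TATA box), to the binding motif of the MEF2 factors, and to CATTCC (the MCAT element of the TEAD factors), on either strand.
Myh3 (chr11:67078050-67078349, plus strand): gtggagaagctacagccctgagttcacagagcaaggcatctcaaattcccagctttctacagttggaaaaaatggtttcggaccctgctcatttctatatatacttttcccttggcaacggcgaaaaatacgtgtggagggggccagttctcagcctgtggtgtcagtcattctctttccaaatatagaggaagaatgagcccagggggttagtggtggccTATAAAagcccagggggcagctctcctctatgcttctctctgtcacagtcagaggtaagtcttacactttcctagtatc
Myh2 (chr11:67170777-67171076, plus strand): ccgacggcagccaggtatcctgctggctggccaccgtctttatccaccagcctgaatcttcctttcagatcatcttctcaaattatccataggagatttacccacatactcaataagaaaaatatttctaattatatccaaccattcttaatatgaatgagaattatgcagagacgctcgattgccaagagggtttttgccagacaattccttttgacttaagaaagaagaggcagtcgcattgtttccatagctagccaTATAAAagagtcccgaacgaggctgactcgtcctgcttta
Myh1 (chr11:67199852-67200151, plus strand): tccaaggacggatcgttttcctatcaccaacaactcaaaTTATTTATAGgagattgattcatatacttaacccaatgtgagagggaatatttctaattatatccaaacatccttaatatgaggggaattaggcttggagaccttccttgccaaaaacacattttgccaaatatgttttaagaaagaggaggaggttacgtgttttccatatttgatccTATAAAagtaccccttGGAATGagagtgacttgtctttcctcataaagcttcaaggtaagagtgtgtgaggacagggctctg
Myh4 (chr11:67237562-67237861, plus strand): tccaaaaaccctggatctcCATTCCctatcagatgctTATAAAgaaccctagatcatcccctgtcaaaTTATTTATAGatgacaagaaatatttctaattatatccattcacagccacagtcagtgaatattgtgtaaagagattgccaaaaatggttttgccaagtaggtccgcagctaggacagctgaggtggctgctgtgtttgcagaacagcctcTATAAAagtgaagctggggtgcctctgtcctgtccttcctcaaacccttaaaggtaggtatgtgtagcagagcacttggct
Myh7 (chr14:54994577-54994876, minus strand): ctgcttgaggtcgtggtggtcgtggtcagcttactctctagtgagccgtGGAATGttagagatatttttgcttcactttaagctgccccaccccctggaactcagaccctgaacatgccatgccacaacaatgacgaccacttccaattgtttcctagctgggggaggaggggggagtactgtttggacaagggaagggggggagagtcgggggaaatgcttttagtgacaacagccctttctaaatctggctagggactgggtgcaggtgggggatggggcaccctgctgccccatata

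On either strand, TATAAA occurred in 6 of the 9 members (Myh1, Myh2, Myh3, Myh4, Myh6 and Myh8) and in 13.6% of the 32851 mouse promoters of the same length. The Myh8 match lies inside its MEF2 match. The MEF2 motif occurred in Myh1, Myh4 and Myh8 and in 3.19% of promoters, and CATTCC in Myh1, Myh4, Myh6 and Myh7 and in 14.7%. The E-box of the myogenic factors (CANNTG) was found in 7 members and in 72.3% of promoters, and the NFAT core GGAAA in 4 members and in 61.3%. The CArG box of Srf was found in Myh4 and Myh13 and in 1.63% of promoters. These are matches of letters and not measured sites.

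The fast chains made up most of the family. Myh4 was the most abundant member in every library, both as counts and per kilobase of transcript. At 2 months it measured 2504919, 1955532 and 2662071 normalized counts in the 3 libraries, at 20 months 2460136, 2527260.4 and 2100593, and at 28 months 2161461, 1664631 and 1990712. The 3 ages overlapped. The log2 fold change was 0.00 (95% interval -0.60 to 0.60) from 2 to 20 months and -0.29 (-0.89 to 0.31) from 2 to 28 months, with adjusted p of 0.999 and 0.538 by limma.

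Myh1, the IIx gene, varied more between mice than between ages. It measured 186556, 403737 and 181483 normalized counts at 2 months, 220596, 305658 and 300229 at 20 months, and 169218, 401115 and 226493 at 28 months. Replicate 2 was the highest library at each age, and the groups overlapped. The log2 fold changes were 0.19 (SE 0.33) at 20 and 0.06 (SE 0.33) at 28 against 2 months, and neither was called.

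Myh2, the gene of the oxidative IIa fibre, rose after 2 months. Its levels were 62164, 115766 and 89323 normalized counts at 2 months, then 168634, 125467 and 159179 at 20 months and 147109, 117535 and 158097 at 28 months. Every older library lay above every 2-m library, by a small margin between 20-m or 28-m replicate 2 and 2-m replicate 2. The log2 fold change was 0.80 (SE 0.20, adjusted p = 0.0186) at 20 months and 0.70 (SE 0.20, adjusted p = 0.0386) at 28 months, by limma. The older group lay wholly above the younger in 18.4% and 15.3% of all genes in these contrasts. Without replicate 1 at 2 months the adjusted p values were 0.0690 and 0.145. The first call was also lost without replicate 1 or 3 at 20 months (0.0845 and 0.0519). The second was lost without replicate 3 at 2 months, replicate 1 at 20 months, or replicate 1 or 3 at 28 months (0.0530 to 0.134). With the libraries rescaled to the same sum neither was called (0.0566 and 0.104). Over the 23 alternatives the first call was kept in 18 and the second in 13.

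Myh7, the slow gene, had the widest range of the family on the log2 scale. At 2 months it measured 2773, 44700.5 and 8400.4 normalized counts, with a mean of 18625 ± 22757 (SD, n = 3). At 20 months it measured 109827, 62731 and 88434, and at 28 months 107845, 80566 and 112463. All 6 older libraries lay above the highest young one, and the 20-m and 28-m groups overlapped. The log2 fold change was 3.06 (SE 0.68, adjusted p = 0.0095) from 2 to 20 months, 3.29 (SE 0.68, adjusted p = 0.0072) from 2 to 28 months and 0.23 (SE 0.68, adjusted p = 0.942) from 20 to 28 months, by limma. Without 2-m replicate 2, the young library with the high value, the first of these was 4.13 and the second 4.36. Without 2-m replicate 1, the lowest library, they were 2.13 and 2.36, still called at adjusted p = 0.0204 and 0.0145.

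Myh3, the embryonic gene, was the most even of the members in young muscle. Its levels were 417, 407 and 427 normalized counts at 2 months, a coefficient of variation of 2.44%. They were 1756, 1271 and 1668 at 20 months and 2537, 2039.8 and 2614 at 28 months, so that the 3 ages did not overlap at any step. The log2 fold change was 1.89 (SE 0.13, adjusted p = 5.5e-06) from 2 to 20 months and 2.51 (SE 0.13, adjusted p = 8.5e-07) from 2 to 28 months by limma, and both were called under every alternative run. The further rise from 20 to 28 months was 0.62 (SE 0.13) with adjusted p = 0.0700, short of the threshold. It was called with the replicate number as a block (0.0098), with a term for the libraries numbered 3 (0.0345) and with DESeq2. Over the 23 alternatives this adjusted p ran from 0.0019 with DESeq2 to 0.766 with the libraries rescaled to the same sum. An older group wholly above the younger was found for 8.63% of all genes in that last contrast.

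Myh8, the neonatal gene, was not called in any contrast. It measured 5922, 6455 and 7548 normalized counts at 2 months, 5008, 5364 and 7002 at 20 months and 5053, 4665 and 7004 at 28 months. The library numbered 3 was the highest at each age. The log2 fold changes were -0.21 (SE 0.16) and -0.27 (SE 0.16) against 2 months, with adjusted p of 0.396 and 0.286 by limma. With a term for the libraries numbered 3, the second had adjusted p = 0.0237, and with the replicate number as a block 0.0258. Per 100 normalized counts of Myh8 there were 6.34 ± 0.689 of Myh3 at 2 months, 27.5 ± 6.53 at 20 months and 43.8 ± 6.44 at 28 months (SD, n = 3), with no overlap between the ages.

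The cardiac alpha gene Myh6 was low throughout. It measured 114, 250.2 and 144 normalized counts at 2 months, 263, 208 and 398 at 20 months, and 268, 286 and 369.9 at 28 months. The 20-m group overlapped the 2-m group and the 28-m group lay above it. The log2 fold change was 0.80 (SE 0.29, adjusted p = 0.0739) at 20 months and 0.93 (SE 0.29, adjusted p = 0.0484) at 28 months, by limma. The second call was kept under 9 of 23 alternatives, and was lost without replicate 1 or 3 at 2 months, replicate 1 at 20 months or any 1 library at 28 months (adjusted p from 0.0698 to 0.175).

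Heart markers were near or at 0. Myl7 and Mybpc3, which encode an atrial myosin light chain and the cardiac myosin-binding protein C, had no read in any library. The summed level of 6 heart genes (with Nppa, Nppb, Tnni3 and Ryr2) was 16.6 to 44.1 normalized counts at 2 months, 16.9 to 33.6 at 20 months and 11.4 to 22.1 at 28 months. No older library exceeded the highest young one. The identity of the Myh6 and Myh7 transcripts given above applies to the Myh6 counts, of which there were 0.56 to 4.10 per 100 of Myh7 at 2 months and 0.24 to 0.45 at 20 and 28 months.

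Myh7b followed the same young libraries as Myh7. It measured 78.0, 402 and 145 normalized counts at 2 months, 361, 300.3 and 430.4 at 20 months and 362, 438 and 336 at 28 months. 2-m replicate 2 lay within the range of both older groups, and the other 2-m libraries lay below it. The log2 fold changes of 1.11 (SE 0.42) and 1.18 (SE 0.42) against 2 months were not called, with adjusted p of 0.0867 and 0.0815 by limma. Without 2-m replicate 2 they were 1.75 and 1.81 and both were called (adjusted p = 0.00042 and 0.00034).

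Myh13, the gene of the extraocular chain, was measured at 357, 906 and 566 normalized counts at 2 months, at 555, 547 and 613 at 20 months and at 355, 729 and 432 at 28 months. Its groups overlapped in every contrast, and its log2 fold changes were 0.01 (SE 0.30), -0.24 (SE 0.30) and -0.24 (SE 0.30). Over the 9 libraries its level ran closest to that of Myh1 among the members (Pearson r = 0.85 on the log2 scale). Both were highest in the replicate 2 libraries at 2 and 28 months.

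**Figure D2:**
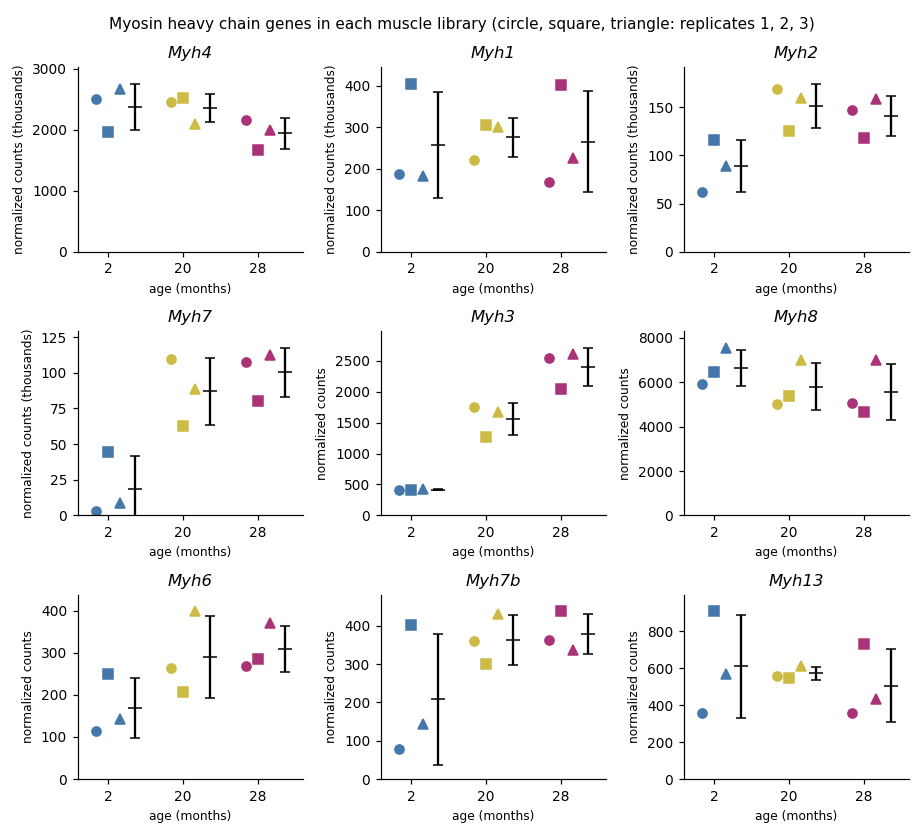
Normalized counts of each gene in each library (y axis, scaled as each panel's axis states and starting at 0; x axis, age in months; circles, squares and triangles are replicates 1, 2 and 3, and bars are mean ± SD with n = 3, with the 2-m bar of Myh7 ending at 0). The 3 groups of Myh3 separate at each step, the older libraries of Myh7 and Myh2 lie above all young ones, and those of Myh4, Myh1, Myh8 and Myh13 overlap the young ones.

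Per kilobase of transcript the order of the levels at 2 months was Myh4 (393270 ± 61450 normalized counts per kilobase, SD, n = 3), Myh1 (42656 ± 21038), Myh2 (14645 ± 4406) and Myh7 (2950.2 ± 3605). The others followed with Myh8 (1080.1 ± 135), Myh13 (103 ± 47.0), Myh3 (69.6 ± 1.70), Myh7b (34.0 ± 27.9) and Myh6 (27.8 ± 11.8). The ranges of Myh1 and Myh2 did not overlap. Those of Myh7 and Myh8 did, as did those of Myh13 and Myh3, and those of Myh7b and Myh6. At 28 months Myh7 stood at 15886 ± 2731, well apart from Myh8 at 907 ± 204. Myh3 had passed Myh13, with 400.0 ± 52.0 against 85.6 ± 33.5, and their ranges no longer overlapped.

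The share of each gene in the summed counts of the 9 members does not depend on how libraries are scaled. The summed level of the family was 2747187 ± 211437 normalized counts at 2 months, 2884830.0 ± 198378 at 20 months and 2454912 ± 165469 at 28 months (SD, n = 3). Myh4 held 86.1 ± 7.56% of it at 2 months, 81.8 ± 2.42% at 20 months and 78.8 ± 5.09% at 28 months, with overlapping ranges. Myh1 held 9.62 ± 5.50%, 9.61 ± 1.97% and 11.1 ± 5.83%. These 2 fast chains together therefore made up most of the family at each age.

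The share of Myh7 was 0.10, 1.77 and 0.28% in the 2-m libraries, 3.70, 2.07 and 3.33% at 20 months and 4.16, 3.55 and 4.50% at 28 months. Every older library lay above every young one. The share of Myh2 was 2.25, 4.58 and 3.03% at 2 months, 5.68, 4.14 and 5.99% at 20 months and 5.67, 5.17 and 6.33% at 28 months, so that it lay wholly above the young range at 28 months but not at 20 months. The share of Myh3 stayed under 0.11% in every library and increased at each step without overlap, from 0.015 ± 0.00082% to 0.055 ± 0.011% and 0.097 ± 0.0074%. Myh6 at 28 against 2 months was the other share with no overlap. Shares computed per kilobase of transcript differed from these by less than 1 SD for every member and age.

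**Figure D3:**
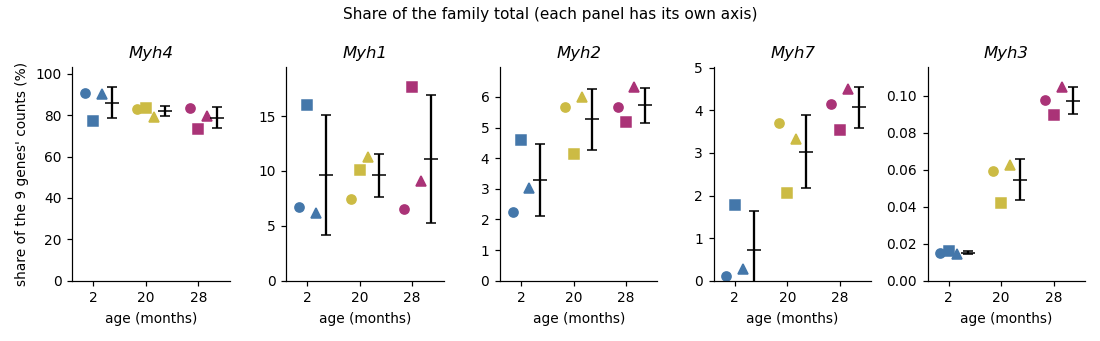
Share of 5 genes in the summed counts of the 9 members (y axis, percent, each panel with its own axis from 0; x axis, age in months; symbols are replicates 1, 2 and 3 as circle, square and triangle, bars are mean ± SD with n = 3, with the 2-m bar of Myh7 ending at 0). Myh4 lies between 73.3 and 90.6% of the family, and Myh7 and Myh3 lie higher in every older library than in any young one.

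The ratio of the slow gene to the IIa gene differed between ages as well. Per 100 normalized counts of Myh2 there were 4.46, 38.6 and 9.40 of Myh7 in the 2-m libraries, 56.9 ± 7.65 at 20 months with 65.1 as the highest, and 71.0 ± 2.38 at 28 months with 68.5 as the lowest (SD, n = 3). The 3 ages did not overlap, and the spread was narrowest at 28 months. Of the ratios computed within the family, this one and that of Myh3 to Myh8 alone separated all 3 ages. Myh1 per 100 of Myh4, for example, ran from 6.82 to 20.6, from 8.97 to 14.3 and from 7.83 to 24.1. The share over other gene pairs was not computed. Neither Myh7 nor Myh2 was called from 20 to 28 months (limma adjusted p = 0.942 and 0.910). Over the 9 libraries Myh2 and Myh7 had a Pearson r of 0.96 on the log2 scale, and Myh7 and Myh7b one of 0.95. The libraries share their ages and scaling, so these values describe the table only.

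The rise of Myh7 was shared by genes of the slow fibre that were listed for their known function. Of 12 such genes, 10 rose from 2 to 20 months and 11 from 2 to 28 months, beside 9.42% and 7.53% of all genes, and none was called from 20 to 28 months. The median log2 fold change of the list was 2.25, 2.26 and 0.05 in these contrasts, with -0.02, -0.01 and 0.00 over all genes. From 2 to 20 months, those with the largest rises were Tnnt1 (6.54-fold, adjusted p = 0.0101), Tnni1 (6.35-fold, 0.0146) and Tnnc1 (6.29-fold, 0.0160), the 3 subunits of slow troponin, and Atp2a2 (6.24-fold, 0.0012), the slow-fibre calcium pump. The summed level of the list was 41295, 147695 and 58227 normalized counts at 2 months, and 2-m replicate 2 was again the highest young library.

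From 2 to 28 months Tnni1 was 7.45-fold higher, Tnnt1 6.78-fold, Tnnc1 6.68-fold and Atp2a2 5.95-fold, each called by limma (adjusted p = 0.0108, 0.0103, 0.0152 and 0.0015). The folds moved with single young libraries: from 2 to 20 months Tnnt1 was 13.2-fold higher without 2-m replicate 2 and 3.92-fold without 2-m replicate 1, Tnni1 13.1-fold and 3.52-fold, and Tnnc1 13.5-fold and 3.72-fold. Without the latter library, or without replicate 3 at 2 months or replicate 1 at 20 months, Tnnc1 was no longer called in that contrast, nor was Tnni1 without replicate 1 at 20 months (limma adjusted p from 0.0511 to 0.0703). From 2 to 28 months Tnnt1 ran from 4.06-fold to 13.7-fold and Tnni1 from 4.13-fold to 15.4-fold without these same libraries, and Tnnc1 from 3.96-fold to 14.3-fold, its call lost without replicate 1 at 2 or at 28 months (0.0553 and 0.0546). Atp2a2 was 9.63-fold and 9.17-fold higher in the 2 contrasts without 2-m replicate 2. The counts moved with single libraries and with the tool as well. Without replicate 1 at 20 months 4 of the 12 were called in the first contrast, and without replicate 1 at 2 months or replicate 1 at 28 months 7 and 6 in the second. With replicates 1 and 2 only, 2 were called in the first and 1 in the second. In the first contrast edgeR called 7 by TMM and 6 at the deposited size factors and DESeq2 5, and in the second both edgeR fits called 6 and DESeq2 4.

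Over the 9 libraries, the 5 genes whose log2 levels were most like those of Myh7 among 11256 genes were Tnni1, Myl3, Tnnt1, Tpm3 and Myl2, with Pearson r from 0.992 to 0.998. All 5 were on the slow list, and Myl2 and Myl3 encode the slow light chains that bind the Myh7 neck. Tnni1 illustrates the likeness, with 455, 6280.3 and 1128 normalized counts at 2 months, 12215, 6752 and 10012 at 20 months, and 11414, 10216 and 11441 at 28 months. The 5 genes most like Myh2 were F2r, Tsga10, Pln, Lgi1 and Pla2g12a (r from 0.977 to 0.988). Of these, Pln encodes phospholamban, the inhibitor of the slow-fibre calcium pump. Those most like Myh4 were Golph3, Scmh1, Cbfb, Prmt5 and Me1 (r from 0.941 to 0.949).

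**Figure D4:**
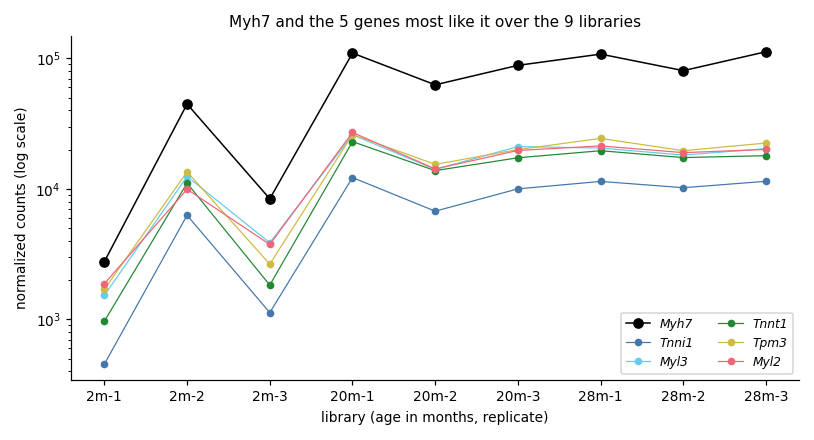
Normalized counts of Myh7 and the 5 genes most like it in each of the 9 libraries (y axis, log scale; x axis, library by age and replicate; lines only join the points of 1 gene). All 6 genes are lowest in 2-m replicate 1 and 2-m replicate 3, stand higher in 2-m replicate 2, and lie higher still in the older libraries.

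Among the partners of the fast fibre some genes fell. Of 12 listed genes, 5 fell from 2 to 20 months and 6 from 2 to 28 months, beside falls in 7.13% and 6.24% of all genes, and none rose, while 7 and 6 were not called. The median log2 fold change was -0.28 and -0.43. From 2 to 20 months Pvalb, the calcium buffer of fast fibres, went to 0.556-fold (adjusted p = 0.0020 by limma) and Casq1, which stores calcium in the fast sarcoplasmic reticulum, to 0.559-fold (0.00068). The light chain genes Mylpf and Myl1 went to 0.633-fold and 0.708-fold (0.0066 and 0.0217), and the call of Myl1 was lost without replicate 1 or 3 at 20 months or replicate 3 at 2 months (0.0609 to 0.0817). From 2 to 28 months Casq1 went to 0.497-fold, Pvalb to 0.491-fold, and Actn3 and Tnnc2 both to 0.696-fold (adjusted p = 0.00019, 0.00056, 0.0425 and 0.0492). The last 2 calls were near the threshold. That of Actn3 was kept only without replicate 3 at 20 months or replicate 2 at 2 months, and was lost without any of the other 7 libraries (adjusted p from 0.0525 to 0.148). That of Tnnc2 was kept only without replicate 3 at 20 months or replicate 2 at 28 months (0.0578 to 0.194 without any of the others). Myh4 and Myh1, the heavy chains of these fibres, were not called in either contrast. Rescaling the libraries to the same sum left 2 calls in each contrast, DESeq2 called 10 from 2 to 28 months, and without any 1 library the counts ran from 3 to 5 and from 3 to 6.

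Genes of the thick filament and its M-band were measured as a list of 8. From 2 to 20 months 3 rose, beside 9.42% of all genes, among them Myom3 (3.45-fold, adjusted p = 0.00020) and Myom1 (1.31-fold, 0.0176). From 2 to 28 months 3 rose and 1 fell, beside 7.53% and 6.24% of all genes: Myom3 was 4.27-fold and Myom1 1.27-fold higher, and Mylk2, the kinase of the fast light chain, fell to 0.721-fold (limma adjusted p = 7.8e-05, 0.0377 and 0.0135). The first call of Myom1 was lost without replicate 1 or 2 at 20 months or replicate 3 at 2 months (0.0526 to 0.0841). Its second was kept only without replicate 3 at 20 months, replicate 2 at 28 months or replicate 2 at 2 months (0.0544 to 0.126 without any of the others). The call of Mylk2 was lost without replicate 1 or 3 at 28 months or replicate 1 at 2 months (0.0508 to 0.0588). Myom3, a myomesin of the M-band, had 1698, 3339 and 2128 normalized counts at 2 months and 6299 to 10811 in the older libraries. Of 7 genes for myosin folding and turnover, the ubiquitin ligases Fbxo32 (2.33-fold, adjusted p = 0.0067) and Trim63 (1.73-fold, 0.0060) rose from 2 to 20 months, beside 9.42% of all genes, and none was called from 2 to 28 months. Unc45b and Smyd1, the myosin chaperone and a methyltransferase of myosin assembly, were not called in any contrast (adjusted p of 0.438 or more).

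Among 18 regulators of fibre type, 5 rose and 2 fell from 2 to 20 months and 6 rose and 2 fell from 2 to 28 months, beside 16.6% and 13.8% of all genes called in either direction. Prox1, a factor known for the slow-fibre programme, had 17.8, 109 and 60.6 normalized counts at 2 months, 219, 115 and 142 at 20 months and 269, 129.8 and 204 at 28 months. Its rises were 3.05-fold and 3.84-fold (limma adjusted p = 0.0486 and 0.0245), and 2-m replicate 2 was again the highest young library and replicate 1 the lowest. Without 2-m replicate 1 they were 1.86-fold and 2.35-fold and not called (0.131 and 0.0560). The first call of Prox1 was kept only without 2-m replicate 2, and the second was also lost without replicate 1 or 3 at 28 months. Tead4, a factor that binds the MCAT element, rose 1.81-fold in both contrasts (0.0198 and 0.0223). Both calls of Tead4 were lost without replicate 1 or 3 at 2 months, the first also without replicate 1 or 2 at 20 months (0.0619 to 0.0762) and the second also without replicate 2 or 3 at 28 months (0.0522 to 0.0816). Mef2a rose 1.59-fold from 2 to 20 months (0.0039). Myod1, the myogenic factor enriched in fast fibres, fell to 0.572-fold and 0.596-fold (0.00070 and 0.0012). Myog, the myogenic factor of differentiation that is also raised in denervated muscle, rose 2.01-fold from 2 to 28 months (0.0160) and 2.40-fold from 20 to 28 months (0.0473), the 1 call of the list in that last contrast. The last call was lost without replicate 1 or 3 at 20 months, replicate 1 or 2 at 28 months or replicate 1 at 2 months (adjusted p up to 0.220), and that from 2 to 28 months without replicate 1 or 2 at 28 months or replicate 1 at 2 months (0.0502 to 0.0779).

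Embryonic Myh3 was set beside 11 genes of developing and regenerating muscle, of which 9 were in the table. From 2 to 20 months Chrng and Ncam1 rose and Actc1 fell, and from 2 to 28 months Chrna1 was added to the rises. These were 3 and 4 of the 9 genes, beside 16.6% and 13.8% of all genes called in either direction. Chrng, the fetal subunit of the acetylcholine receptor, had 0 to 8.81 normalized counts at 2 months and 14.7 to 55.2 in the older libraries (limma adjusted p = 0.0412 and 0.0304). Its first call was kept only without 2-m replicate 2, and its second was lost without replicate 1 or 3 at 2 months or any 1 library at 28 months (adjusted p up to 0.175 and 0.101). Chrna1, its alpha subunit, was 2.14-fold higher and Ncam1, a neural adhesion molecule, 1.77-fold higher at 28 than at 2 months (0.00026 and 0.0083). The 20-month call of Ncam1 was lost without replicate 1 or 3 at 20 months or replicate 2 at 2 months (0.0635 to 0.0941). Actc1, the cardiac actin that young muscle still makes, went the opposite way to Myh3, with 35874, 11648 and 59450.2 normalized counts at 2 months and 1625 to 5315 in the older libraries (adjusted p = 5.3e-05 and 0.0013). The median log2 fold change over the 9 genes was 0.36 and 0.43.

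Of the 4 class II heavy chains made outside the sarcomere, Myh10 and Myh14, which encode non-muscle myosins IIB and IIC, rose in both contrasts with 2 months, beside 9.42% and 7.53% of all genes. Myh10 was 2.01-fold and 2.27-fold higher (limma adjusted p = 0.0011 and 0.00039) and Myh14 1.80-fold and 1.97-fold higher (0.00010 and 3.9e-05). Myh9 and Myh11, of non-muscle myosin IIA and smooth muscle, were not called. Myh11 lay between 2508 and 3838 normalized counts over all libraries.

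Markers of some other cells fell over the same ages. In bulk tissue, fewer cells of a type and less RNA per cell cannot be told apart. Of 4 fibroblast genes Col1a1 and Col3a1 fell in both contrasts with 2 months, beside 7.13% and 6.24% of all genes, Col1a1 to 0.0886-fold and 0.0985-fold, and the list summed to 35292 to 67163 normalized counts at 2 months and 18099 to 24213 later. All 4 adipocyte genes fell from 2 to 20 months, beside 7.13% of all genes, and 2 of the 4 (Cfd and Cidec) from 2 to 28 months, beside 6.24%. The 20-month call of Adipoq was kept only without replicate 1 or 3 at 28 months or replicate 2 at 2 months (limma adjusted p from 0.0658 to 0.180 without any of the others). Those of Cidec and Plin1 were lost without replicate 1 or 2 at 20 months or replicate 1 at 2 months (up to 0.0980 and 0.0730), and both 28-month calls without replicate 1 at 28 months (0.0573 for Cfd and 0.0516 for Cidec). Their sums were 1489 to 4373 at 2 months, 445 to 642 at 20 months and 590.2 to 1421 at 28 months. The summed level of 4 Schwann cell genes was 5540.2 to 7151 at 2 months, 3596 to 5083 at 20 months and 4575 to 6727 at 28 months. The summed levels of the macrophage, smooth muscle and endothelial lists overlapped between the ages. Their part in the myosin values was not tested.

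Next to the members, the long non-coding RNA gene 2310065F04Rik lies within the chromosome 11 cluster, between Myh3 and Myh2 (67112461 to 67120080). It is outside the rule for named genes and was singled out after its values were seen. It had 1828, 2286 and 2717 normalized counts at 2 months, 1334, 1294 and 1152 at 20 months, and 1378, 1190.5 and 1248 at 28 months. It fell to 0.560-fold and 0.565-fold (limma adjusted p = 0.0010 and 0.0012), while Myh3 and Myh2 on either side of it rose. Antisense or overlapping RNAs such as Mhrt and Gm31251 at Myh7 and Myhas at Myh1 were not analysed here, and the library kit does not mark strand, so their reads cannot be told apart from those of Myh7 and Myh1.

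MicroRNAs lie within several members: miR-208a in Myh6, miR-208b in Myh7 and miR-499 in Myh7b. A further annotated one within Myh3, Mir6923, was not analysed here. The mature sequences of the first 3 are shown because miR-208a and miR-208b share their seed (bases 2 to 8, in capitals). The seed of miR-499 differs from it at base 8 alone. The sequences come from RefSeq.
mmu-miR-208a-3p: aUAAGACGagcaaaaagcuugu
mmu-miR-208b-3p: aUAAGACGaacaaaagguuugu
mmu-miR-499-5p: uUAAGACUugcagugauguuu
The genes of all 3 were listed at 0 in each library of poly-A RNA, a measurement that does not capture mature microRNAs.

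MBD capture at the member loci was read in bins of 500 bp, as normalized counts made by the authors. The table had 1 column of pooled DNA per tissue and age, so ages could not be tested, and the intervals given cover counting error only. Muscle DNA was captured in 2 rounds at each age, and whether a muscle column holds the first, the repeat or both is not given in the sources used here. Across the gene bodies of the 9 members the median capture in muscle was 45.7 normalized counts per bin at 2 months, 37.8 at 20 months and 27.0 at 28 months. In T cells the members ranged from 32.7 to 66.3 at 2 months and from 37.6 to 87.5 at 28 months. Over 16730 genes the medians were 22.7, 20.9 and 18.9 in muscle and 24.1, 27.3 and 29.3 in T cells, so each member lay above the median gene in both tissues at all ages.

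All 9 gene bodies were lower in muscle at 28 than at 2 months, with ratios from 0.515 (Myh7b) to 0.698 (Myh13), and the median ratio over all genes was 0.836, with 28.3% of genes over 1. In muscle capture at 2 months Myh1, Myh4, Myh2 and Myh3 stood at percentiles 86.5, 87.9, 95.8 and 98.1 of all genes. The members were not set against genes of like capture. The paper reports a loss of methylation with age in highly methylated regions of muscle. Myh3, which rose in RNA, went from 56.7 (95% exact Poisson interval 54.7 to 58.8) to 46.8 (45.0 to 48.6) and 29.3 (28.1 to 30.6). Myh4, the main fast gene, went from 39.4 (37.7 to 41.2) to 31.8 (30.4 to 33.4) and 23.6 (22.5 to 24.8). Myh7 went from 45.7 (43.9 to 47.6) to 37.8 (36.2 to 39.4) and 27.0 (25.9 to 28.2). Members that rose in RNA and members that did not thus both showed lower capture. The mean over all bins also differed between libraries, at 24.0, 22.2 and 17.6 in muscle and 38.8, 47.6 and 48.6 in T cells. Rescaled to the same sum, all 9 members remained lower in muscle at 28 than at 2 months, with medians of 50.8 and 63.1. The median ratio and share over all genes given above are on the deposited scale. They were not computed after rescaling.

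Between tissues the direction depended on the scaling. As deposited, 7 of the 9 gene bodies were lower in muscle than in T cells at 2 months and all 9 at 28 months, and after rescaling to the same sum 0 and 2 were. As deposited, 40.4% and 21.2% of the 16730 genes were higher in muscle than in T cells at these ages. The share of all genes after rescaling was not computed, so the rescaled counts have none beside them. Within 1 kb of the transcript start, and as deposited, Myh4 had the lowest ratio of muscle to T cells at 20 and 28 months, with 23.7, 21.9 and 19.4 in muscle at 2, 20 and 28 months and 47.9, 58.9 and 71.4 in T cells. This ratio was 0.494, 0.372 and 0.271, and at 2 months the ratio of Myh2 was lower, at 0.427. The muscle values of the Myh4 start at 2 and 28 months had overlapping Poisson intervals (19.8 to 28.1 and 16.4 to 22.7). With 2 kb on each side they were 15.7 and 15.9. Rescaled to the same sum, the Myh4 start had 32.7, 32.7 and 36.4 in muscle and 40.9, 41.0 and 48.6 in T cells, so that the value in muscle was higher at 28 than at 2 months and the gap was smaller. The ratio farthest from 1 on that scale was that of the Myh3 start, which was higher in muscle, with 29.1, 28.9 and 46.2 there and 13.7, 11.2 and 12.4 in T cells. Of the 9 starts, 4 (Myh4, Myh7, Myh7b and Myh13) were lower in muscle at 28 than at 2 months, and the count was 7 with 2 kb on each side and 1 with the columns rescaled to the same sum. The share over all gene starts was not computed, so these counts cannot be set against other genes.

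The starts differ in how many CpGs, the sites that carry the mark, they hold. In the 300-base windows the Myh4 start had 1 CpG, Myh1 and Myh13 had 3, Myh3 and Myh7b 4, Myh6 2, Myh8 6 and Myh2 9, the 2 annotated starts of Myh7 had 2 and 5, and the median over the 32851 promoters was 7.

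**Figure D5:**
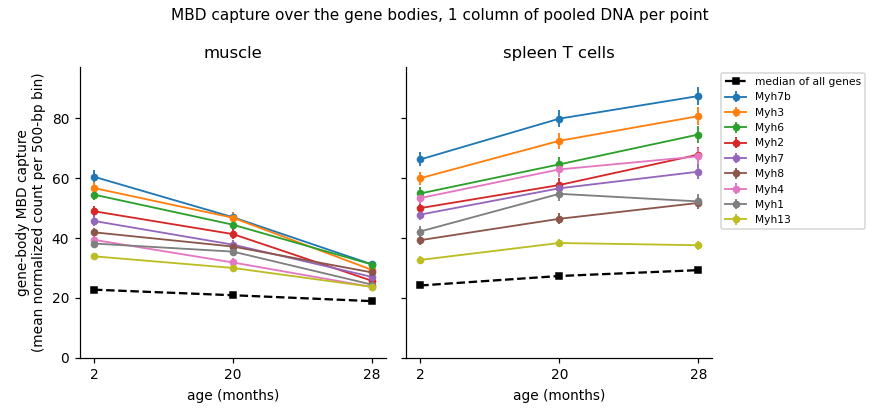
MBD capture over the gene bodies (y axis, mean normalized count per 500-bp bin, from 0; x axis, age in months; points are 1 column of pooled DNA each, which for muscle may hold either or both of 2 capture rounds, bars are 95% Poisson intervals for counting error, lines join the points of 1 gene, and the dashed line is the median of 16730 genes). In muscle the 9 genes fall from between 33.9 and 60.5 at 2 months to between 23.6 and 31.2 at 28 months, and in T cells they lie between 32.7 and 66.3 at 2 months and between 37.6 and 87.5 at 28 months.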

How the data were processed

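The deposited signal of both assays is a read count, per refSeq gene for RNA and per 500-bp bin for MBD, that the authors scaled with DESeq2 size factors. Per the labels and methods, the RNA was poly-A selected, aligned to mm10 with Hisat2 and counted with htseq-count in intersection-strict mode; the labels also name Trim Galore, Bowtie2, TopHat and bedtools, without versions. In all libraries 100% of values were whole multiples of 1 step (tolerance 0.001), which gave back the reads. The 5 rows that name no gene, 37.9 to 47.7% of each column, were left out.

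All 9 libraries were fitted with limma 3.58.1 in R 4.3.3 on log2(normalized count + 1), with age as the only term, for the 13178 genes with a mean of at least 10, and p-values were adjusted by Benjamini-Hochberg over them. The fit was tested on simulated data. As alternatives, the reads so recovered were tested with edgeR (4.0.16) and with DESeq2 (1.42.0). The members and lists were chosen with earlier results of these data known. Named were all members and, per list and contrast, at most 4 called genes with the largest change, and for Myh7, Myh2 and Myh4 the 5 genes most like them by Pearson r with a mean of at least 50. Replicates were separate mice. Some genes of the lists are not reported here.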

Additional observations from a re-analysis of the deposited data

How the results depend on the processing

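Each member called in a contrast kept its direction there in all 23 alternatives. Among the members, the number called from 2 to 20 months was 5 with the replicate block, which added Myh6 and Myh7b, and 1 with replicates 1 and 2 only. From 2 to 28 months it was 2 with no filter on low values, 2 with only the 2 ages compared and 1 with replicates 1 and 2 only. From 20 to 28 months it was 1 (Myh3) with the replicate block, with a term for replicates 3 and with DESeq2. The deviations of same-numbered libraries had r from 0.11 to 0.16 for the 3 pairs numbered 3, which also share a low Rn45s share, and from -0.04 to 0.10 for the pairs numbered 1 and 2, so the numbers were not taken as pairs. Leaving out 1 library at a time gave 2 to 5 and 2 to 5 members in the contrasts with 2 months, 4 to 12 and 6 to 12 slow partners, and 3 to 5 and 3 to 6 fast partners.

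Slow partners called from 2 to 20 months were 2 with replicates 1 and 2 only, 6 with edgeR at the deposited size factors and 5 with DESeq2, and from 2 to 28 months 1 with replicates 1 and 2 only, 6 with edgeR by TMM, 6 at the deposited size factors and 4 with DESeq2. Fast partners called from 2 to 20 months were 2 when rescaled to the same sum, 2 with replicates 1 and 2 only and 0 by fold over 2 and unadjusted p. From 2 to 28 months they were 3 with no filter, 2 when rescaled, 2 with replicates 1 and 2 only, 3 with only the 2 ages compared, 10 with DESeq2 and 2 by fold over 2 and unadjusted p.

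Uncalled members near 0 changed sign. With replicates 1 and 2 only, Myh1 was -0.080, -0.075 and 0.0048 (20 against 2, 28 against 2 and 28 against 20 months) and Myh13 -0.046 (20 against 2). Rescaled without Rn45s, an alternative added after the data were seen, Myh4 was -0.033 and Myh13 -0.026 (20 against 2) and Myh8 0.019 (28 against 20). With edgeR by TMM, edgeR at the deposited size factors and DESeq2, Myh4 was -0.0080, -0.0070 and -0.0053 and Myh13 -0.090, -0.093 and -0.089 (20 against 2). Quantile normalization gave 0.0021 for Myh8 (28 against 20).

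Leaving out 1 library at a time, Myh1 ran from -0.010 to 0.57 (20 against 2), -0.29 to 0.43 (28 against 2) and -0.48 to 0.15 (28 against 20), Myh4 from -0.13 to 0.090 and Myh13 from -0.33 to 0.34 (20 against 2), and Myh13 from -0.57 to 0.10 (28 against 2). From 20 to 28 months Myh2 ran from -0.23 to 0.025, Myh6 from -0.087 to 0.38, Myh7b from -0.066 to 0.19 and Myh8 from -0.24 to 0.082.

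Per kilobase of unique transcript the share of Myh3 was 0.014% at 2 months and 0.088% at 28 months. For MBD starts lower in muscle at 28 than at 2 months, the number was 7 with 2 kb each side and 1 when rescaled, and starts lower in T cells at 2 than at 28 months were 3 when rescaled. As deposited, every start but that of Myh13 was lower in T cells at 2 than at 28 months. Rescaled, 0 and 2 gene bodies and 3 and 1 starts were lower in muscle than in T cells at 2 and 28 months. As deposited, every start was lower in muscle except those of Myh3 and Myh7b at 2 months and that of Myh3 at 28 months. Shares over all genes were not computed for starts or after rescaling. The cause of these changes was not tested.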
